A study of Mus musculus with 8 samples.

Results

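Mitosis and spindle genes are described here as 46 genes chosen by symbol from a written list, all of them present among the 56884 annotated genes of the deposited count table. They comprise CDK1 with its cyclins and CDC25 phosphatases, mitotic kinases, the chromosomal passenger complex, the spindle checkpoint, anaphase regulators, kinetochore proteins, spindle motors, and proteins of the central spindle and cytokinesis. RNA was measured by bulk sequencing in Lacun3, a cell line from a mouse lung adenocarcinoma. The 4 STK11 KO libraries came from Lacun3 cells in which Stk11 had been disrupted by CRISPR, and the 4 STK11 WT libraries from the parental Lacun3 line. Both lines grew in DMEM with fetal bovine serum, penicillin and streptomycin, received no treatment, and were collected in log phase. The labels call the libraries of each genotype independent biological replicates. They name 1 edited and 1 parental line and do not say whether the edited line is a clone, so the genotype and the history of the edited line cannot be told apart.

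A dividing cell enters mitosis when CDK1, bound to cyclin A or B, is freed of inhibitory phosphates by CDC25 phosphatases. Polo-like and Aurora kinases then build the spindle, kinetochores attach chromosomes to it, and the spindle checkpoint holds back the anaphase-promoting complex (APC/C) until every chromosome is attached. Transcripts of most of these genes peak in G2 and M phase, when MuvB complexes with B-MYB and FOXM1 activate them. STK11, also called LKB1, is a kinase that activates AMPK and its relatives and is a tumour suppressor often lost in lung adenocarcinoma.

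Libraries held 21441601 to 25715008 counts in the STK11 KO group and 18837263 to 21101904 in the STK11 WT group. Stk11 itself had 35.4, 35.1, 33.5 and 35.0 counts per 1000000 (CPM, over TMM-scaled library sizes, in the order of replicates 1 to 4 here and in all later lists of values) in STK11 KO cells, against 64.9, 67.1, 68.4 and 64.7 CPM in STK11 WT cells. Its RNA fell by 0.93 ± 0.06 on the log2 scale (± SE, edgeR's quasi-likelihood test, Benjamini-Hochberg adjusted p = 2.03e-12). The labels do not place the edit within the gene, so a count over the whole gene does not show whether the edited segment is read. Levels of cell type markers are given as CPM over total counts, without TMM scaling. Of 6 epithelial markers, 5 were detected, with a summed level of 7460 to 8100 CPM in STK11 KO and 8430 to 8820 CPM in STK11 WT libraries, and Cldn7 was at 0 throughout. Summed markers of other cell types reached at most 24.2 CPM in STK11 KO and 54.4 CPM in STK11 WT libraries for 6 haematopoietic genes, nearly all of it Cd68, with Adgre1 at 0. For 4 endothelial genes the maximum was 4.54 CPM in STK11 KO and 1.9 CPM in STK11 WT, with Kdr at 0, and for 5 fibroblast genes 2.8 CPM in STK11 KO and 4.94 CPM in STK11 WT, with Col1a2 at 0. Their part in the results was not tested.

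RNA of the mitotic machinery was higher in STK11 KO cells across nearly the whole set. All 46 genes passed the filter on low counts. Of these, 45 rose, which is 97.8% of them, and Anln, an actin- and septin-binding scaffold of the cleavage furrow, did not pass the test. All 46 fitted changes were above 0, so edgeR called 0 of them lower at an adjusted or an unadjusted p under 0.05, and DESeq2 and limma-voom also called 0 lower. Among all 13707 genes tested, 68.0% passed at an adjusted p under 0.05, 34.4% being higher and 33.6% lower in STK11 KO cells. The median log2 fold change (STK11 KO over STK11 WT) of the 46 genes was 0.69, with quartiles at 0.53 and 0.90, beside a median of 0.01 and quartiles at -0.38 and 0.37 over all genes tested. At least 1.5-fold higher were 32 of the 46, or 69.6%, against 15.0% of all genes tested, and at least 2-fold higher were 8, or 17.4%, against 7.02%. In 43 of the 46 genes, or 93.5%, every STK11 KO library lay above every STK11 WT library, a separation seen in 30.5% of all genes tested. More cells in G2 and M phase and more RNA of these genes per cell cannot be told apart in bulk RNA.

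**Figure D1:**
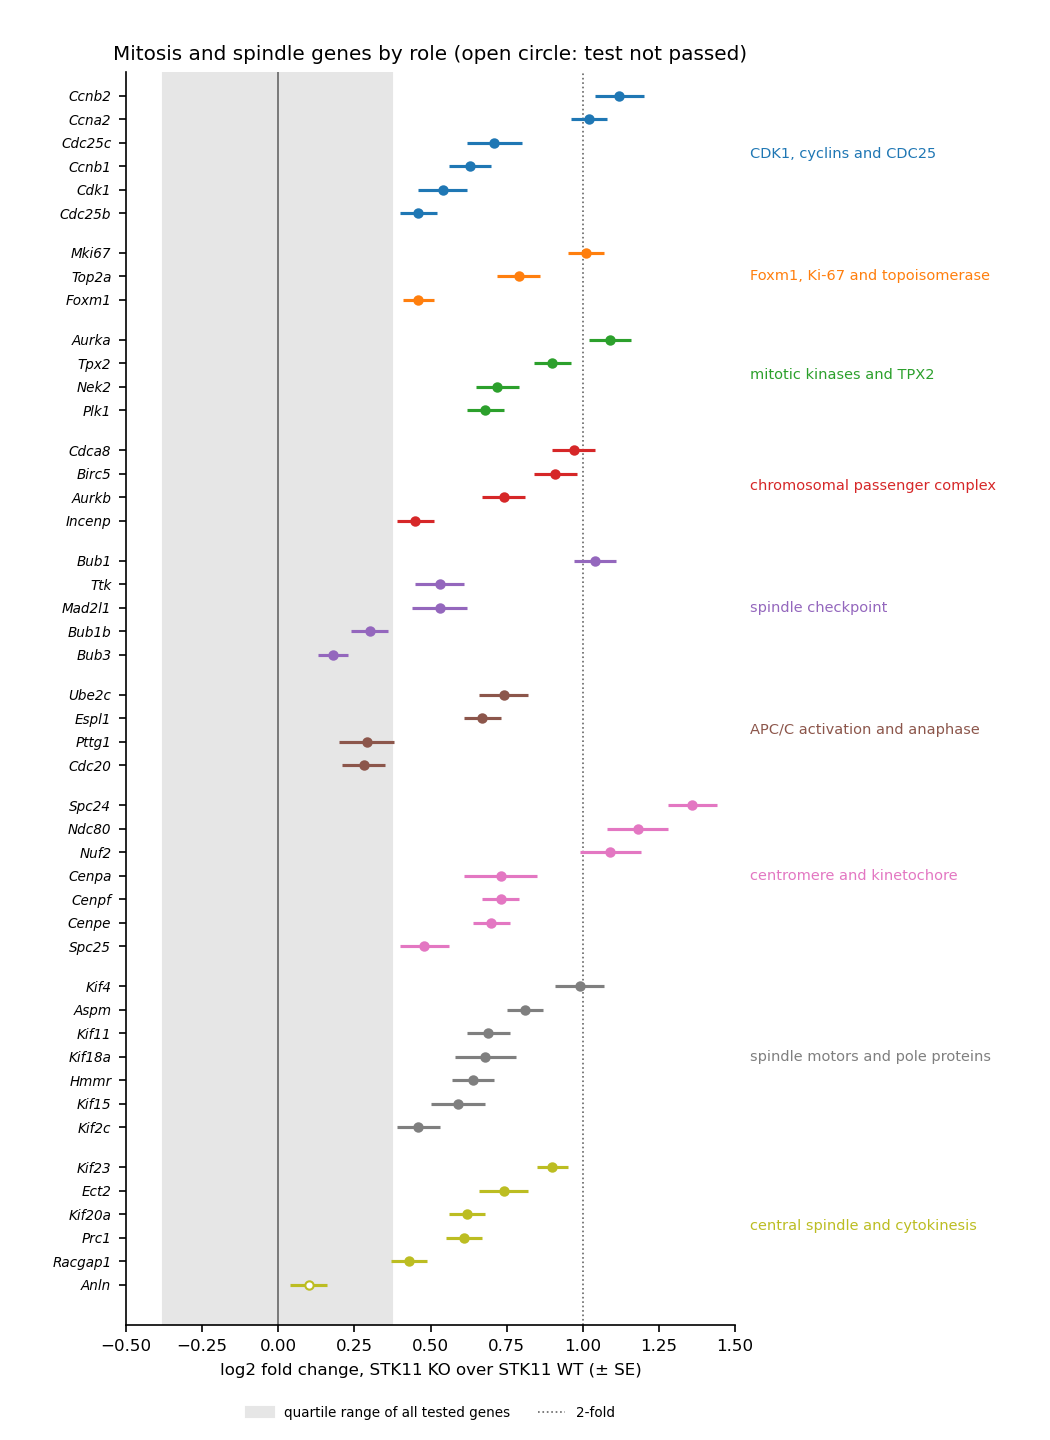
Log2 fold change of each of the 46 genes (x axis, STK11 KO over STK11 WT, ± SE, 4 libraries each), arranged by role and colour, with the grey band marking the quartile range of all tested genes and the dotted line 2-fold. Spc24 lies farthest right at 1.36, and Anln, the open circle, lies lowest at 0.10.

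The 8 genes that rose at least 2-fold were Spc24, Ndc80 and Nuf2 of the outer kinetochore, the cyclins Ccnb2 and Ccna2, the kinases Aurka and Bub1, and Mki67. Their log2 fold changes ran down from 1.36 in Spc24 to 1.01 in Mki67. The least changed of the genes that passed were Bub3 at 0.18, Cdc20 at 0.28, Pttg1 at 0.29 and Bub1b at 0.30. Across the 46 genes the log2 fold change had a Spearman correlation of -0.03 with exon length, of -0.29 with the level in STK11 WT cells in CPM, and of -0.23 with that level per kilobase. These describe 46 genes measured in the same libraries and are not independent points.

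Promoters of these genes were read from RefSeq to show what the genes share in sequence, since MuvB complexes bind CHR-type elements and NF-Y binds CCAAT boxes in many mitotic promoters. The table held windows for 38 of the 46 genes, 41 windows in all on build GRCm38.p6, each from 250 bases before to 50 bases after an annotated start. Aurkb, Ccna2, Cdc25c, Foxm1, Incenp, Kif20a, Spc24 and Tpx2 had none there. The genes Mki67, Kif23 and Aurka are shown because they had the smallest adjusted p among the risers above a log2 fold change of 0.5 that the table holds, and Ccnb2 and Top2a were added after their motifs had been seen. Each line gives the 200 bases before the start, on the minus strand, with matches in capitals. The motifs searched were TTTGAA with its reverse complement TTCAAA, the palindrome TTCGAA, and the box CCAAT with its reverse complement ATTGG.
Mki67, chr7:135716380-135716579: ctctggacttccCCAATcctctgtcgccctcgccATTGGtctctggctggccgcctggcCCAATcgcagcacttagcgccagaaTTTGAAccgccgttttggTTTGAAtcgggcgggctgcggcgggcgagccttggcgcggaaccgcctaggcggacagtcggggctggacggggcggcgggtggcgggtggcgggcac
Kif23, chr9:61946800-61946999: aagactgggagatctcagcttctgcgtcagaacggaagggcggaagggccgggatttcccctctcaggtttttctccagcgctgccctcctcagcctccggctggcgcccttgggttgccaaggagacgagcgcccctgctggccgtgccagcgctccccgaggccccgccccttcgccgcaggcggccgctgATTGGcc
Aurka, chr2:172370571-172370770: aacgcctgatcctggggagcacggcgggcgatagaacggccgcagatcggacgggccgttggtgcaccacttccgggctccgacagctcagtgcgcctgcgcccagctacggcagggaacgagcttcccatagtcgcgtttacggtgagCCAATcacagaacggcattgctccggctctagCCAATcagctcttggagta
Ccnb2, chr9:70421555-70421754: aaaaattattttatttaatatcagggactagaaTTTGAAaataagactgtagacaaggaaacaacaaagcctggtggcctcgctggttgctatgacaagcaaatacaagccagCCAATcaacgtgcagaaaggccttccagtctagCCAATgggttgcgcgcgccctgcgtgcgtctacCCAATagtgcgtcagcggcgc
Top2a, chr11:99024190-99024389: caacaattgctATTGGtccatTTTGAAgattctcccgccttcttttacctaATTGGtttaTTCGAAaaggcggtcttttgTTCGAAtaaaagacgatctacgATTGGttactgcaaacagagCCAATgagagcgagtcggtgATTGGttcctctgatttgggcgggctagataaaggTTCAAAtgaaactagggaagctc
In Mki67 a pair of TTTGAA matches began 116 and 98 bases before the start, downstream of 3 CCAAT boxes. Top2a had 4 CHR-type matches and 5 CCAAT boxes in the stretch shown. The CHR-type matches of Kif23 and Aurka, and a further one of Ccnb2, began 3, 33 and 5 bases after the start in that order and lie outside the letters printed.

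Over the windows, a CHR-type match (TTTGAA or TTCGAA, both strands) was present in 80.5% of the 41 windows of mitosis and spindle genes, against 13.8% of the 12629 windows of tested genes and 19.2% of all 32851 windows. A CCAAT box was present in 78.0% of the windows of these genes, against 38.1% of those of tested genes and 37.4% of all. Both kinds of motif were present together in 70.7%, against 5.75% of the windows of tested genes and 7.52% of all. CHR-type and CCAAT matches shared bases in 1 window of these genes and in 48 windows overall. The matches also clustered in place: 48.8% of the windows of mitosis and spindle genes had a CHR-type match in the first 50 bases after the start, against 1.75% of the windows of tested genes. CCAAT boxes began in the last 50 bases before the start in 53.7% of the windows of these genes, against 11.2% of those of tested genes. Within the set, the 30 genes with a CHR-type match had a median log2 fold change of 0.68 and the 8 genes with a window but no match had a median of 0.69. A match is a run of letters and no evidence of binding in these cells.

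**Figure D2:**
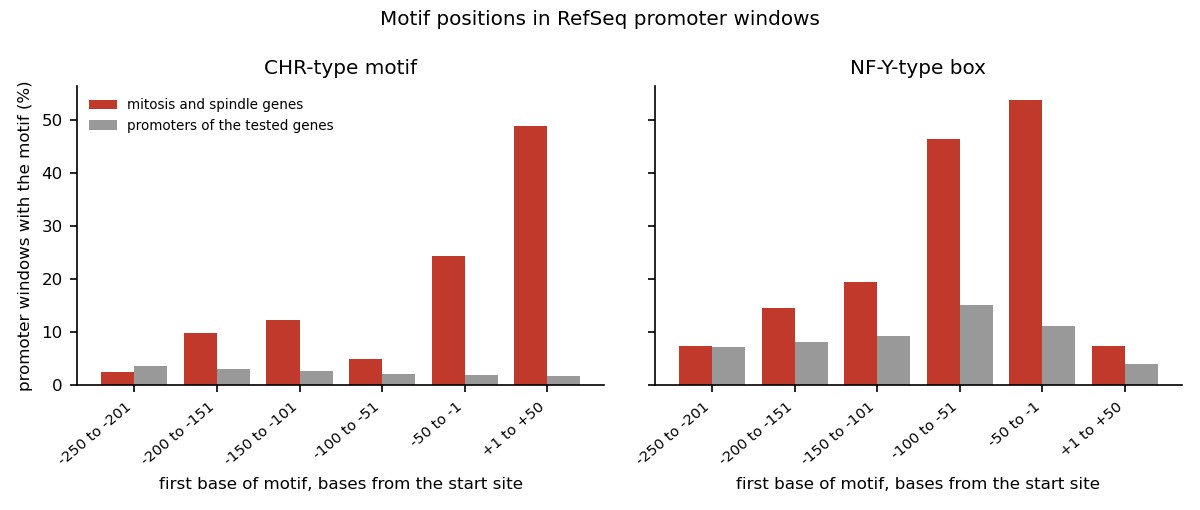
Share of promoter windows (y axis, percent) with a CHR-type motif (left) or an NF-Y-type box (right) in each 50-base bin around the annotated start (x axis), for 41 windows of mitosis and spindle genes (red) and 12629 windows of tested genes (grey). The red bars peak at 48.8% just after the start for the CHR-type motif and at 53.7% just before it for the NF-Y-type box.

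CDK1 and its regulators rose in all 6 cases, with a median log2 fold change of 0.67. Ccnb2, which encodes cyclin B2, had 83.6, 109, 80.4 and 89.5 CPM in STK11 KO cells, against 42.4, 40.6, 42.5 and 40.8 CPM in STK11 WT cells. The groups did not overlap, and the second STK11 KO library stood highest. The log2 fold change of Ccnb2 was 1.12 ± 0.08 (adjusted p = 1.52e-11). Ccna2, encoding cyclin A2, which acts with CDK1 and CDK2 from S phase to early mitosis, had 128, 137, 115 and 128 CPM in STK11 KO cells, against 66.2, 65.7, 60.6 and 57.2 CPM in STK11 WT cells. It rose by 1.02 ± 0.06 (adjusted p = 1.93e-12), again with no overlap. Ccnb1, encoding cyclin B1, the main partner of CDK1 at mitotic entry, had 58.5, 71.9, 57.6 and 65.9 CPM in STK11 KO cells, against 43.6, 40.7, 40.9 and 38.8 CPM in STK11 WT cells. Its rise of 0.63 ± 0.07 (adjusted p = 5.29e-08) was smaller than that of Ccnb2. Cdk1 itself had 123, 134, 96.4 and 122 CPM in STK11 KO cells, against 79.6, 87.0, 81.3 and 77.6 CPM in STK11 WT cells. The third STK11 KO library lay closest to the STK11 WT range, and Cdk1 rose by 0.54 ± 0.08 (adjusted p = 3.28e-06). Of the phosphatases that activate CDK1, Cdc25c averaged 19.6 ± 2.16 CPM in STK11 KO and 11.9 ± 0.388 CPM in STK11 WT cells (SD, n = 4 each) and Cdc25b 86.0 ± 5.58 CPM in STK11 KO and 62.5 ± 3.93 CPM in STK11 WT cells. Their rises were 0.71 ± 0.09 and 0.46 ± 0.06 on the log2 scale.

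All 3 genes of the next group rose: Mki67, the proliferation marker Ki-67 that coats mitotic chromosomes, Top2a, the topoisomerase that untangles sister DNA, and Foxm1, a transcription factor of G2 and M phase genes. Mki67 had 345, 351, 343 and 345 CPM in STK11 KO cells, against 171, 187, 175 and 155 CPM in STK11 WT cells. Its STK11 KO libraries were the most alike of any of the 46 genes, with a coefficient of variation of 0.96%, and it rose by 1.01 ± 0.06 (adjusted p = 3.88e-13). Top2a had 504, 460, 395 and 462 CPM in STK11 KO cells, against 271, 279, 254 and 247 CPM in STK11 WT cells, a rise of 0.79 ± 0.07 (adjusted p = 3.58e-10). Foxm1 had 97.4, 102, 104 and 102 CPM in STK11 KO cells, against 73.8, 74.4, 76.0 and 70.9 CPM in STK11 WT cells. The Foxm1 groups were apart by a smaller margin, and its log2 fold change was 0.46 ± 0.05 (adjusted p = 6.72e-08).

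Among the kinases of spindle assembly, Aurka, Plk1 and Nek2 rose together with Tpx2, the protein that activates Aurora A on spindle microtubules. Aurka, encoding Aurora A, had 63.3, 74.0, 56.7 and 67.1 CPM in STK11 KO cells, against 31.4, 30.9, 31.7 and 28.6 CPM in STK11 WT cells. No library of one genotype reached the range of the other, and the rise was 1.09 ± 0.07 (adjusted p = 1.18e-11). Tpx2 averaged 155 ± 9.89 CPM in STK11 KO and 82.8 ± 4.6 CPM in STK11 WT cells (SD, n = 4 each), a rise of 0.90 ± 0.06. Plk1, the Polo-like kinase of centrosome maturation and mitotic entry, averaged 64.0 ± 3.86 CPM in STK11 KO and 39.9 ± 2.54 CPM in STK11 WT cells, and Nek2, a kinase of centrosome separation, 51.2 ± 3.0 CPM in STK11 KO and 30.9 ± 3.18 CPM in STK11 WT cells. Plk1 rose by 0.68 ± 0.06 and Nek2 by 0.72 ± 0.07.

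The chromosomal passenger complex corrects faulty attachments and later directs cytokinesis. All 4 of its subunits rose, with a median log2 fold change of 0.82. Cdca8, encoding the targeting subunit borealin, had 53.9, 61.7, 51.2 and 60.6 CPM in STK11 KO cells, against 28.1, 29.4, 29.4 and 29.0 CPM in STK11 WT cells, and rose by 0.97 ± 0.07 (adjusted p = 2.32e-11). Birc5, encoding survivin, had 59.4, 66.9, 54.6 and 63.4 CPM in STK11 KO cells, against 32.8, 32.9, 33.9 and 30.4 CPM in STK11 WT cells, and rose by 0.91 ± 0.07 (adjusted p = 7.07e-11). Aurkb, the kinase of the complex, had 69.9, 68.3, 55.2 and 65.1 CPM in STK11 KO cells, against 37.0, 38.5, 39.3 and 39.6 CPM in STK11 WT cells. Aurkb rose by 0.74 ± 0.07 (adjusted p = 2.99e-09), and all 3 of these subunits had their lowest STK11 KO value in the third library. Incenp, the scaffold that binds and activates Aurora B, had 96.1, 91.4, 90.5 and 90.6 CPM in STK11 KO cells, against 72.8, 70.1, 63.1 and 64.3 CPM in STK11 WT cells. Its rise of 0.45 ± 0.06 (adjusted p = 4.35e-07) was the smallest of the 4.

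The spindle checkpoint, which delays anaphase while kinetochores are unattached, rose in all 5 genes but by unequal amounts. Bub1, a kinase that recruits other checkpoint proteins to kinetochores, had 109, 106, 84.0 and 108 CPM in STK11 KO cells, against 50.0, 47.6, 53.4 and 47.2 CPM in STK11 WT cells. In the third STK11 KO library Bub1 was well below the other three and still far above every STK11 WT library, and Bub1 rose by 1.04 ± 0.07 (adjusted p = 3.27e-11). Bub1b, encoding BubR1 of the mitotic checkpoint complex, had 108, 111, 94.7 and 103 CPM in STK11 KO cells, against 84.6, 91.2, 83.1 and 79.2 CPM in STK11 WT cells, and rose by 0.30 ± 0.06 (adjusted p = 0.000129). Bub3, the partner of both BUB1 and BubR1, had 90.6, 95.8, 84.6 and 93.3 CPM in STK11 KO cells, against 80.1, 80.8, 78.0 and 83.1 CPM in STK11 WT cells. The Bub3 groups were barely apart, and its rise was 0.18 ± 0.05 (adjusted p = 0.00669). With scaling by library size alone, Bub3 had a log2 fold change of 0.09 and no longer passed (adjusted p = 0.135). Mad2l1, encoding MAD2, averaged 84.2 ± 13.5 CPM in STK11 KO and 58.1 ± 1.7 CPM in STK11 WT cells, and Ttk, encoding the kinase MPS1, 25.1 ± 1.91 CPM in STK11 KO and 17.3 ± 0.827 CPM in STK11 WT cells (SD, n = 4 each). Both had log2 fold changes of 0.53.

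Of the 4 genes of APC/C activation and anaphase, all rose, with a median of 0.48, and 2 had groups that overlapped. Ube2c, the ubiquitin-conjugating enzyme that works with the APC/C, had 151, 166, 119 and 142 CPM in STK11 KO cells, against 83.3, 87.8, 92.1 and 84.1 CPM in STK11 WT cells, and rose by 0.74 ± 0.08 (adjusted p = 4.88e-08). Espl1, encoding separase, the protease that cuts cohesin, averaged 45.7 ± 1.77 CPM in STK11 KO and 28.7 ± 1.6 CPM in STK11 WT cells (SD, n = 4 each), a rise of 0.67 ± 0.06. Cdc20, encoding the APC/C activator that the checkpoint holds in check, had 82.6, 97.3, 72.4 and 83.9 CPM in STK11 KO cells, against 69.1, 69.5, 72.6 and 65.4 CPM in STK11 WT cells. In this gene the third STK11 KO library lay just inside the STK11 WT range, and the rise was 0.28 ± 0.07 (adjusted p = 0.00139). Pttg1, encoding securin, the inhibitor of separase, had 33.5, 40.3, 28.1 and 34.8 CPM in STK11 KO cells, against 26.2, 28.3, 30.2 and 26.5 CPM in STK11 WT cells. Here too the third STK11 KO library lay within the STK11 WT range, and Pttg1 rose by 0.29 ± 0.09 (adjusted p = 0.00562).

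The centromere and kinetochore genes rose in all 7 cases and held the 2 largest changes of the 46 genes, in Spc24 and Ndc80. The NDC80 complex, which grips microtubule ends, is built of a NDC80 and NUF2 dimer joined to a SPC24 and SPC25 dimer. Spc24 (chromosome 9, 21666738 to 21671599 on GRCm39, minus strand) had 32.8, 33.2, 27.0 and 32.2 CPM in STK11 KO cells, against 12.3, 11.3, 12.2 and 12.9 CPM in STK11 WT cells, and rose by 1.36 ± 0.08 (adjusted p = 2.54e-12). Ndc80 had 22.6, 24.8, 19.7 and 24.5 CPM in STK11 KO cells, against 8.86, 11.5, 10.4 and 9.63 CPM in STK11 WT cells, and rose by 1.18 ± 0.10 (adjusted p = 3.55e-10). Nuf2 had 35.4, 38.2, 26.1 and 36.3 CPM in STK11 KO cells, against 16.2, 16.9, 15.9 and 14.6 CPM in STK11 WT cells, and rose by 1.09 ± 0.10 (adjusted p = 2.88e-09). These 3 subunits were above 2-fold with no overlap between the genotypes. Spc25 had 21.6, 25.4, 20.3 and 24.0 CPM in STK11 KO cells, against 16.0, 16.2, 16.5 and 16.5 CPM in STK11 WT cells. Its rise was 0.48 ± 0.08 (adjusted p = 2e-05), the smallest of the 4 subunits. Cenpa, the histone H3 variant that marks centromeres, had 78.9, 89.8, 57.4 and 82.9 CPM in STK11 KO cells, against 42.4, 46.2, 51.2 and 45.9 CPM in STK11 WT cells. It was the most variable gene in STK11 KO cells, with a coefficient of variation of 18.1%, and rose by 0.73 ± 0.12 (adjusted p = 0.000156). Cenpe, a kinesin that moves chromosomes to the spindle equator, averaged 90.0 ± 4.85 CPM in STK11 KO and 55.5 ± 4.09 CPM in STK11 WT cells, and Cenpf, a large outer kinetochore protein, 80.5 ± 2.51 CPM in STK11 KO and 48.5 ± 3.76 CPM in STK11 WT cells (SD, n = 4 each). Their log2 fold changes were 0.70 and 0.73.

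**Figure D3:**
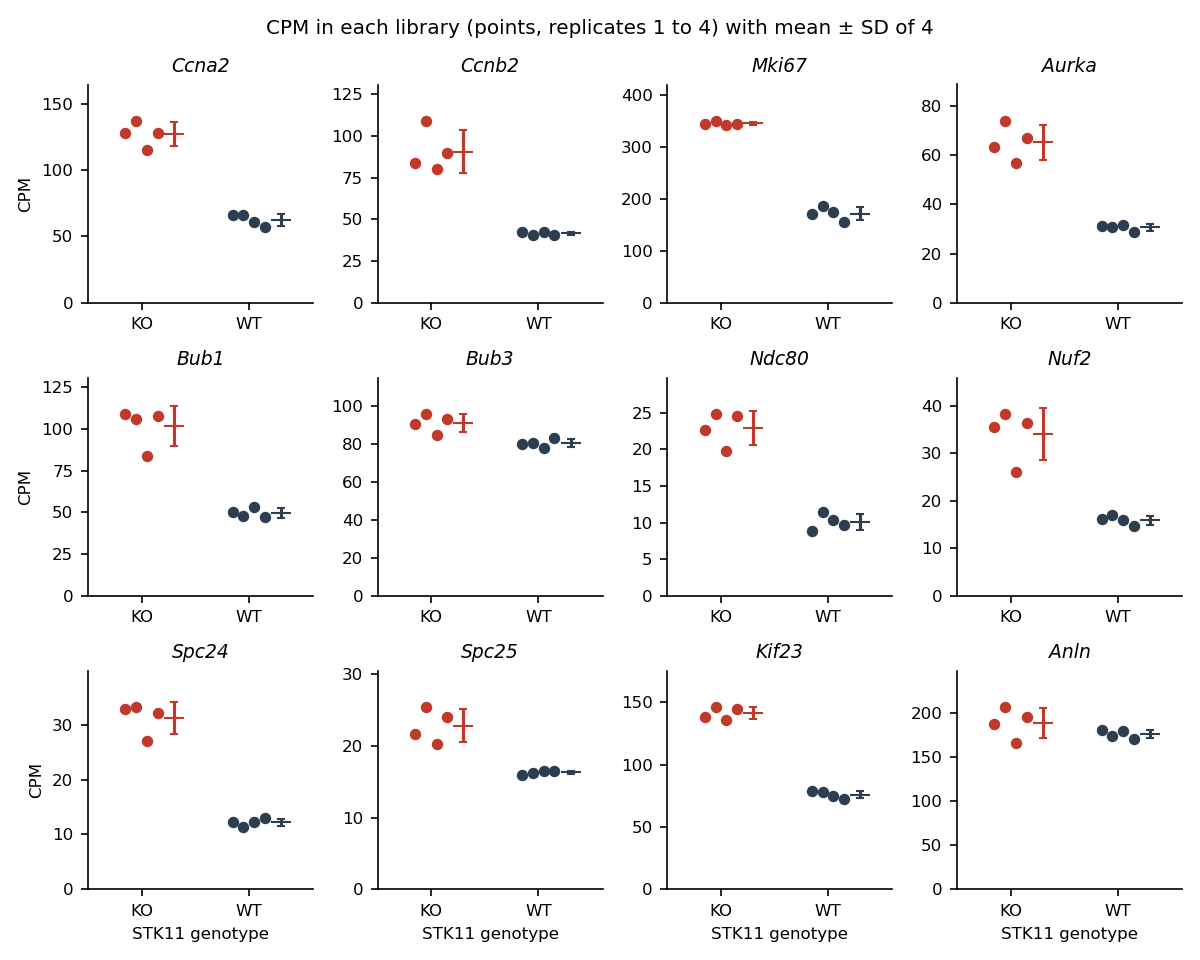
CPM (y axis) of 12 of the genes in each library, STK11 KO at the left and STK11 WT at the right of each panel, with the mean ± SD of 4 libraries beside the points. In Spc24 the STK11 KO libraries lie between 27.0 and 33.2 CPM and the STK11 WT libraries between 11.3 and 12.9 CPM, whereas in Anln the groups overlap.

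Spindle motors and pole proteins rose in all 7 cases, with a median log2 fold change of 0.68. Kif4, a chromokinesin that also shapes the central spindle, had 36.7, 43.9, 37.6 and 45.6 CPM in STK11 KO cells, against 22.0, 20.5, 20.2 and 19.4 CPM in STK11 WT cells, and rose by 0.99 ± 0.08 (adjusted p = 1.98e-10). Aspm, a protein of spindle poles, averaged 58.0 ± 1.97 CPM in STK11 KO and 33.1 ± 1.95 CPM in STK11 WT cells (SD, n = 4 each), a rise of 0.81 ± 0.06. Kif11, the motor that pushes spindle poles apart, had 51.7, 65.7, 63.5 and 57.5 CPM in STK11 KO cells, against 37.8, 38.3, 36.4 and 35.8 CPM in STK11 WT cells, and rose by 0.69 ± 0.07 (adjusted p = 1.26e-08). Here the first STK11 KO library was the lowest of its group and not the third. Kif15, which can share the task of Kif11, averaged 28.1 ± 3.18 CPM in STK11 KO and 18.7 ± 1.47 CPM in STK11 WT cells, and Kif18a, which dampens chromosome movements, 23.1 ± 3.2 CPM in STK11 KO and 14.4 ± 0.972 CPM in STK11 WT cells. Hmmr, a spindle pole protein that binds TPX2, averaged 94.8 ± 10.1 CPM in STK11 KO and 60.8 ± 5.16 CPM in STK11 WT cells. Kif2c, the microtubule depolymerase MCAK, averaged 37.1 ± 2.14 CPM in STK11 KO and 26.9 ± 0.521 CPM in STK11 WT cells. The log2 fold changes of Kif15, Kif18a, Hmmr and Kif2c ran from 0.46 in Kif2c to 0.68 in Kif18a.

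In the central spindle and cytokinesis group, 5 of 6 genes rose. Kif23, the kinesin subunit of centralspindlin, had 138, 146, 136 and 145 CPM in STK11 KO cells, against 78.8, 77.8, 75.0 and 72.1 CPM in STK11 WT cells, and rose by 0.90 ± 0.05 (adjusted p = 1.05e-12). Its partner Racgap1, the GTPase-activating subunit, had 123, 143, 123 and 129 CPM in STK11 KO cells, against 95.5, 100, 93.5 and 95.6 CPM in STK11 WT cells, and rose by 0.43 ± 0.06 (adjusted p = 6.66e-07). Ect2, the exchange factor that activates RhoA at the cleavage plane, rose by 0.74 ± 0.08, Kif20a, a kinesin that relocates the passenger complex in anaphase, by 0.62 ± 0.06, and Prc1, which bundles antiparallel microtubules, by 0.61 ± 0.06. Anln (chromosome 9, 22243308 to 22300484 on GRCm39, minus strand) had 188, 207, 166 and 196 CPM in STK11 KO cells, against 181, 174, 180 and 171 CPM in STK11 WT cells. The third STK11 KO library was below every STK11 WT library and the other three were above them all. Its log2 fold change of 0.10 ± 0.06 did not pass (adjusted p = 0.142), whereas without the third STK11 KO library it was 0.16 and passed (adjusted p = 0.0042).

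Levels can be compared between genes only per unit of length. The length used was the union of all annotated exons of a gene, which can exceed that of its transcript, so the order depends on the annotation. On the scale of CPM per kilobase of this union, Ccnb2 had the highest level in STK11 KO cells, at 59.2, against 27.1 in STK11 WT cells. Ube2c followed with a level of 55.6 in STK11 KO and 33.4 in STK11 WT cells, Top2a with 50.5 in STK11 KO and 29.2 in STK11 WT cells, and Cdc20 with 45.0 in STK11 KO and 37.0 in STK11 WT cells. In STK11 WT cells Cdc20 had the highest of these 4 levels, and in STK11 KO cells the lowest. At the other end stood the motors Kif18a, with a level of 2.35 in STK11 KO and 1.46 in STK11 WT cells, and Kif15, with 2.55 in STK11 KO and 1.69 in STK11 WT cells.

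Genes whose products work in 1 complex did not always rise by the same amount. The ratio of raw counts of partners within a library, which is free of any scaling between libraries, was compared in 27 pairs by a two-sided exact permutation test over the 70 ways to assign the libraries. The smallest p this design allows is 0.0286, and 17 pairs reached it, at 0.0454 after Benjamini-Hochberg adjustment over the 27. All 17 share that adjusted value, which depends on how many pairs reach the smallest p, and several pairs share a gene. Over all genes tested, the CPM of the genotypes did not overlap in 60.6%, a share of single genes and not of ratios. How many pairs of unrelated genes would reach the smallest p was not computed. The 17 are therefore not shown to be particular to partners. The pairs were written with the results for single genes known, and these ratios of counts say nothing of how many molecules of each protein there are. In the NDC80 complex the Spc24 to Spc25 ratio was 1.52, 1.31, 1.33 and 1.34 in STK11 KO libraries, against 0.773, 0.699, 0.736 and 0.779 in STK11 WT libraries. The difference in log2 ratio (STK11 KO minus STK11 WT) was 0.88 ± 0.06 (SE), with no overlap. Ndc80 to Spc25 averaged 1.0 in STK11 KO and 0.616 in STK11 WT libraries, and Nuf2 to Spc25 averaged 1.48 in STK11 KO and 0.975 in STK11 WT libraries, both among the 17. The ratio of Ndc80 to Nuf2, the partners within 1 dimer, averaged 0.679 in STK11 KO and 0.632 in STK11 WT libraries and did not pass, with a difference of 0.10 ± 0.09 (exact permutation p = 0.486, adjusted 0.505).

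Among checkpoint partners, the Bub1 to Bub3 ratio was 1.2, 1.11, 0.993 and 1.16 in STK11 KO libraries, against 0.625, 0.589, 0.685 and 0.568 in STK11 WT libraries. Its log2 difference of 0.86 ± 0.08 was close in size to that of Spc24 to Spc25, and the pair was among the 17. Bub1 to Bub1b, also among them, averaged 0.972 in STK11 KO and 0.586 in STK11 WT libraries, whereas Bub1b to Bub3 averaged 1.14 in STK11 KO and 1.05 in STK11 WT libraries with overlap (exact permutation p = 0.0857, adjusted 0.11). The cyclin B transcripts shifted towards Ccnb2: the Ccnb2 to Ccnb1 ratio was 1.43, 1.51, 1.4 and 1.36 in STK11 KO libraries, against 0.973, 0.997, 1.04 and 1.05 in STK11 WT libraries, a log2 difference of 0.49 ± 0.04 that was among the 17. Ccna2 to Cdk1 averaged 1.07 in STK11 KO and 0.766 in STK11 WT libraries and passed, while Ccnb1 to Cdk1 averaged 0.536 in STK11 KO and 0.504 in STK11 WT libraries and did not, with a difference of 0.09 ± 0.08 (exact permutation p = 0.314, adjusted 0.339). In centralspindlin the Kif23 to Racgap1 ratio averaged 1.09 in STK11 KO and 0.789 in STK11 WT libraries, and in the passenger complex the Cdca8 to Incenp ratio averaged 0.615 in STK11 KO and 0.43 in STK11 WT libraries. Both passed, as did Espl1 to Pttg1, the separase to securin ratio, at 1.35 in STK11 KO and 1.03 in STK11 WT libraries.

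The libraries of a genotype did not all stand at the same height. Summed over the 46 genes, CPM were 4249, 4544, 3850 and 4315 in STK11 KO libraries, against 2685, 2721, 2671 and 2520 in STK11 WT libraries. The third STK11 KO library was the lowest of its group in 37 of the 46 genes and the second the highest in 34, and the fourth STK11 WT library was the lowest of its group in 31. The mean log2 difference from the STK11 WT mean was 0.69, 0.82, 0.56 and 0.74 in the STK11 KO libraries. The third STK11 KO library was also the deepest of the 8, with 25715008 counts, and the fourth STK11 WT library the shallowest, with 18837263. Deviations of each STK11 KO library from the others correlated with exon length at -0.15, -0.42, 0.25 and 0.32 (Spearman, 46 genes). The parts of depth and of exon length in these orders were not tested. The median coefficient of variation over the genes was 9.54% in STK11 KO and 5.17% in STK11 WT libraries.

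**Figure D4:**
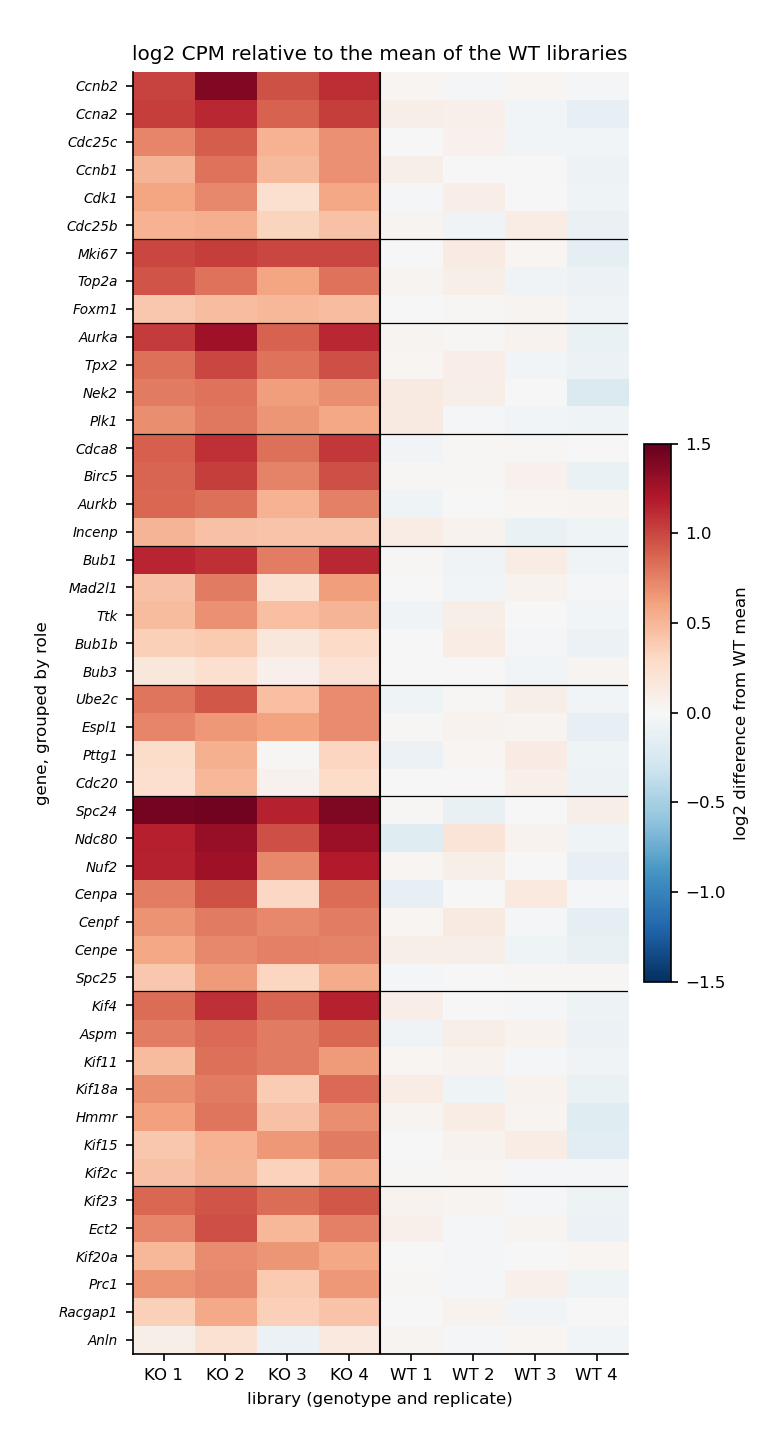
Log2 CPM of each of the 46 genes (rows, by role) in each library (columns, STK11 KO at the left), as the difference from the mean of the STK11 WT libraries (red higher, blue lower). The third STK11 KO column is the palest of its group, with a mean difference of 0.56, and the second is the darkest, with 0.82.

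Further genes of mitosis were grouped in 12 other lists, written like the set itself with earlier results of these data known. Of 180 such genes tested, 110 were called higher and 26 lower, 44 were not called, and the median was 0.32 on the log2 scale. Their share of risers was 61.1%, beside 34.4% of all genes tested. Condensins, which compact chromosomes, rose in 7 of 8 cases, with Ncapg at 1.04 ± 0.07 and Smc2 at 0.91 ± 0.06. Tubulins rose in 9 of 10 cases, with Tubb2a at 1.98 ± 0.06 and Tubb6 at 1.04 ± 0.05, while Tubb4a fell by 0.37 ± 0.11. Of 17 outer kinetochore and checkpoint partners, 11 rose and 2 fell, among them Pmf1, a subunit of the MIS12 complex, at 1.36 ± 0.07, and Tpr, a nuclear pore protein that binds MAD1, at -0.33 ± 0.06. Of 20 genes of the inner centromere network and CENP-A loading, 12 rose and 1 fell, with Hjurp, the chaperone that deposits CENP-A, at 1.14 ± 0.07 and Cenpb at -0.19 ± 0.06. The number of fallers among these 20 was 0 without STK11 WT replicate 4, and 2 without STK11 KO replicate 2, without STK11 WT replicate 1, with DESeq2's size factors, with upper quartile scaling, or with a filter of 1 CPM in 4 libraries. With scaling by library size alone, 8 of the 20 rose and 3 fell, and without STK11 KO replicate 2, 8 rose.

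Cohesin and its protectors had 10 risers and 2 fallers of 16, with Stag1 at 1.11 ± 0.07 and Sgo1, which shields centromeric cohesin, at 0.97 ± 0.08. The cohesin fallers numbered 0 without STK11 KO replicate 4 or without STK11 WT replicate 1, and 1 without STK11 WT replicate 2 or 4 or with no filter on low counts. They numbered 3 without STK11 KO replicate 3 or with scaling by library size alone. The APC/C subunits and regulators had 9 risers and 2 fallers of 18, with Anapc5 at 0.86 ± 0.05 and Anapc1 at -0.22 ± 0.05. Spindle assembly and microtubule proteins had 13 risers and 4 fallers of 22, with Nusap1, a microtubule bundler, at 1.12 ± 0.07 and Clasp1 at -0.38 ± 0.06. The centriole and centrosome list had 10 risers and 3 fallers of 17, with Plk4, the kinase that starts centriole duplication, at 0.89 ± 0.07. Cytokinesis and abscission had 13 risers and 3 fallers of 17, and its fallers included Septin6 at -1.65 ± 0.07 and Chmp4c, a protein of the abscission checkpoint, at -0.96 ± 0.06. Other mitotic kinesins had 4 risers and 1 faller of 6, with Kif18b at 0.80 ± 0.07, and that faller, Kif2a, no longer passed without STK11 KO replicate 1 or 2 or without STK11 WT replicate 3. The MuvB-DREAM and B-Myb list had 6 risers and 4 fallers of 12, with Rbl1, encoding the pocket protein p107, at 0.76 ± 0.07 and Tfdp2, a partner of E2F factors, at -1.18 ± 0.07. For each of these lists, the shares over all genes tested were 34.4% higher and 33.6% lower. Of 17 mitotic entry and exit regulators, 6 rose and 3 fell, so its share of risers, 35.3%, was near that of all genes. Pkmyt1, an inhibitory kinase of CDK1, was at 0.99 ± 0.08 and Wee1, another such kinase, at -0.45 ± 0.09. The median of that list was 0.04, and it was 0.07 without STK11 KO replicate 1 and 0.10 without STK11 WT replicate 1. With scaling by library size alone it was -0.04, with 4 risers and 4 fallers.

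Of 37 DNA replication genes, which act in an earlier phase of the cell cycle, 15 were called higher and 5 lower, 17 were not called, and the median was 0.11 on the log2 scale. The replication genes called lower numbered 8 without STK11 WT replicate 3, and 10 with scaling by library size alone, which gave a median of 0.03. Tyms, encoding thymidylate synthase, rose by 1.56 ± 0.10, while Mcm6, a subunit of the replicative helicase, fell by 0.46 ± 0.06. Of 19 genes of early G1 and arrest, 8 rose and 8 fell. Over all genes tested, 34.4% were called higher and 33.6% lower. Ccnd1, encoding cyclin D1, fell by 1.49 ± 0.06 and Cdk6, its kinase partner, fell by 1.18 ± 0.05, while Ccng2, encoding cyclin G2, rose by 1.47 ± 0.07 and E2f2 rose by 1.07 ± 0.07. The difference in the share of risers between these lists and the mitotic set was not tested. CHR-type matches were present in 17.1% of the promoter windows of DNA replication genes and in 33.5% of those of the other mitosis lists, beside 80.5% for mitosis and spindle genes. CCAAT boxes were present in 57.1% and 46.4% of these windows in that order, beside 78.0% for mitosis and spindle genes.

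**Figure D5:**
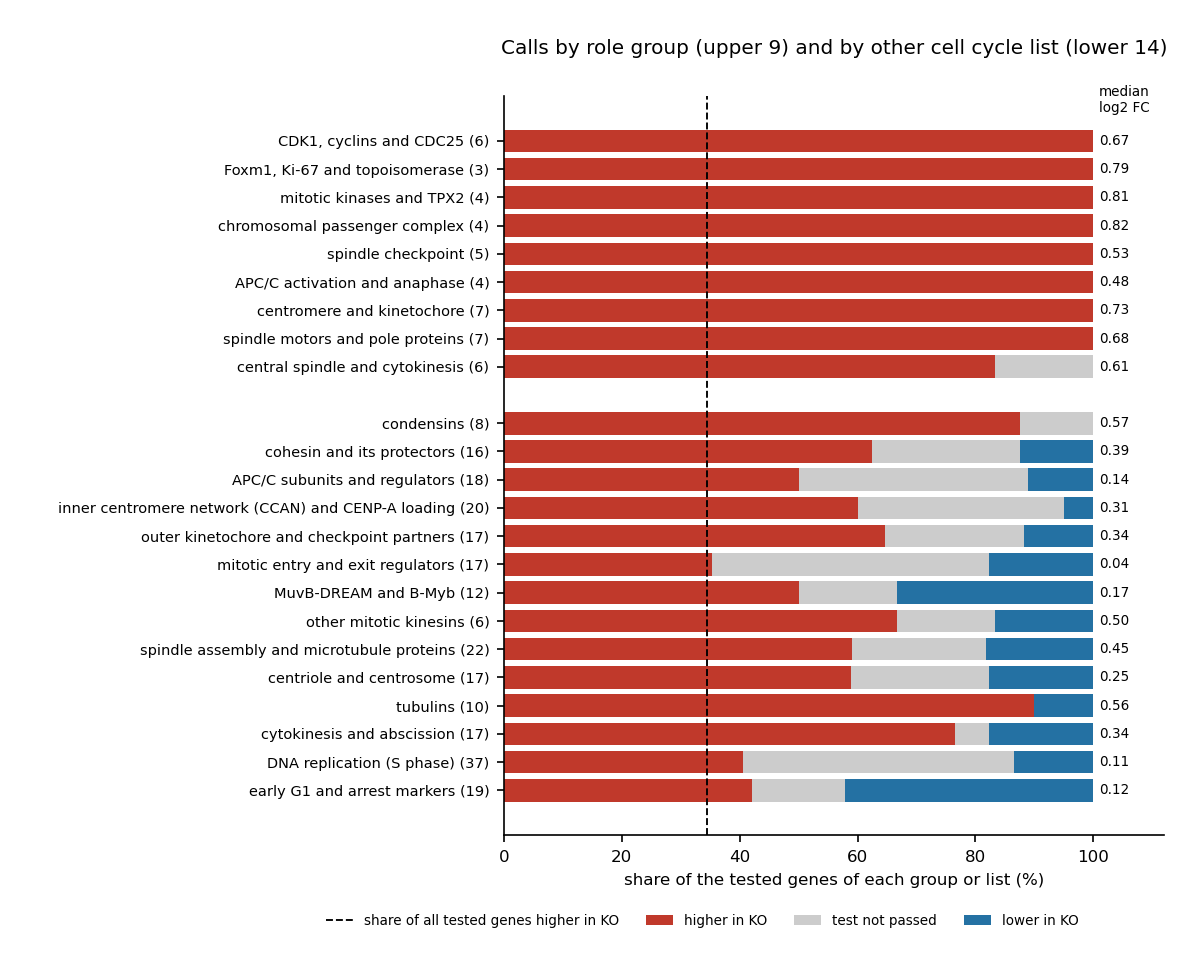
Share of tested genes (x axis, percent) that were higher in STK11 KO (red), did not pass (grey) or were lower (blue), for the 9 role groups above and 14 other lists below, with the number tested in brackets and the median log2 fold change at the right. The dashed line marks 34.4%, the share of all tested genes higher in STK11 KO.

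Some of these counts may be shared with neighbouring genes. In the deposited annotation 25 of the 46 genes overlapped another gene, and in 8 of them the largest count of the neighbour exceeded 5% of the smallest count of the mitotic gene. Kif4 overlapped Pdzd11, which had up to 1385 counts and a log2 fold change of 0.86. Kif18a overlapped Mettl15, at 0.97, and Cdc20 overlapped Elovl1, at 0.39, so both of these neighbours rose as well. The neighbours of the other five were Exosc9 beside Ccna2 at 0.01, Cdc23 beside Kif20a at -0.06, Rccd1 beside Prc1 at 0.23, Spef1 beside Cdc25b at -0.82, and 9930104L06Rik beside Cdca8 at -0.74. All 8 neighbours lie on the opposite strand. The shared stretch was 11 bases for Kif18a and Mettl15, 53 for Cdc20 and Elovl1, 832 for Kif4 and Pdzd11, and up to 21810 for Prc1 and Rccd1. The counts compared above are those of whole genes and not of these stretches. The library kit keeps strand, per the labels, but nothing read here states whether the counting used it. Reads within the shared stretches therefore cannot be told apart.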

How the data were processed

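Libraries were made from polyadenylated RNA with a stranded Illumina kit and sequenced as paired reads, per the labels' protocols. STAR 2.7.9a, featureCounts 1.6.0, FastQC 0.11.8, limma, edgeR and the build GRCm39 are named in the submitters' processing notes, without parameters. Raw counts for 56884 genes were deposited by the authors together with, for 15726 genes, log2 CPM in voom's form, used here only as an alternative.

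The 46 genes, the other lists, the partner pairs and the tests were chosen with earlier results of these data known. Members were matched by symbol. Genes passing filterByExpr (13707) were fitted with edgeR 4.0.16 (R 4.3.3; TMM scaling, robust glmQLFit, glmQLFTest, genotype as the only term). P-values were Benjamini-Hochberg adjusted over all 13707, with calls under 0.05. The SE is the absolute log2 fold change over the square root of F. "Rose" and "fell" mean a passed test. Exon lengths were the union of all annotated exons of a gene in GENCODE, matched by gene identifier. All 46 genes were eligible to be named, with up to 2 risers and 2 fallers of smallest adjusted p per other list. Not every gene so chosen is named. Fits were tested on simulated counts. 1 count was worth 0.0388 to 0.0515 CPM. Permutations and figures used Python 3.11.15 and matplotlib 3.10.9.

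Alternatives were other scalings, filters and tests (DESeq2 1.42.0, limma 3.58.1, glmTreat), a replicate block and leaving out each library. No sample was left out.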

Additional observations from a re-analysis of the deposited data

Results flagged for a closer look

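Each of the 46 genes was examined in each genotype for a library far from the others, which gave 92 groups of 4. In 3 of these groups a value stood out. Chance alone sets apart about 1 in 20 groups. Bub1 had 84.0 CPM in STK11 KO replicate 3, against 106 to 109 CPM in the other STK11 KO libraries. Spc24 had 27.0 CPM in the same library, against 32.2 to 33.2 CPM in the others. Incenp had 96.1 CPM in STK11 KO replicate 1, against 90.5 to 91.4 CPM in the others. All 3 genes rose under each leave-one-out fit.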

How the results depend on the processing

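With other scalings, filters and tests, 45 of the 46 genes rose, except 44 with library size alone (Bub3 lost) and the result of glmTreat. Against a log2 fold change of 1, glmTreat called 1 of the 46 genes (Spc24, higher in STK11 KO), and 1351 genes in all, 555 higher and 796 lower in STK11 KO. That setting asks for more than 2-fold by construction. Leaving out each library in turn gave 45 to 46 risers and 0 fallers among the 46, a median log2 fold change of 0.65 to 0.72, and 8921 to 9656 calls over all genes, 4522 to 4863 higher and 4397 to 4793 lower. The 46th riser was Anln, without STK11 KO replicate 3. Of 782 values of single genes over 17 alternatives, 780 kept direction and call, and none reversed. With 1 library left out, all 216 differences in partner ratio moved by less than the spread between replicates. This alternative was chosen after seeing the data and was given no test. In groups of this size, leaving out 1 library cannot shift a group mean by as much as that spread. The outcome was therefore fixed by arithmetic and does not show whether the partner ratios depend on single libraries. The median of the 46 genes was 0.61 with library size alone, which moved the median of all genes tested to -0.07 and their calls to 3921 higher and 5280 lower, against 4721 higher and 4601 lower with TMM scaling.

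Same-numbered libraries did not visibly deviate together (correlations of 0.0356, 0.00513, -0.0985 and 0.00422). Different-numbered libraries gave values of similar size, from -0.0913 to 0.102. A weak shared batch could go unseen here, so whether the numbers pair the libraries cannot be told. With the replicate block 45 genes rose, with a median of 0.69, and 9182 genes were called in all; the cohesin list had 1 faller in place of 2.

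The lowest count of the 46 genes in any library was 186 (Ndc80). The part of counting error in the spread between replicates was not tested.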
